A study of Homo sapiens with 24 samples.

Results

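The genes described here were 10 intermediate filament genes: the keratins KRT5, KRT7, KRT8, KRT18, KRT19, KRT80 and KRT81, the mesenchymal filament gene VIM, and the neurofilament subunits NEFL and NEFM. They were taken by gene symbol from tables of 60660 features, and each symbol had 1 row. RNA sequencing of poly(A) RNA was carried out on 24 libraries of human prostate cancer cell lines, 3 in each of 8 groups. PC3, an established line from a bone metastasis, was grown in F-12 medium, and LNCaP, an established line from a lymph node metastasis, was grown in RPMI-1640. Medium and line therefore cannot be told apart. Besides the parental cells there was, for either line, a derivative called CE (chronic exposure), which had been passaged in rising concentrations of Acetalax (oxyphenisatin acetate, once marketed as a laxative) until resistant and then kept without drug for 2 weeks. Parental and CE cells of each line were sequenced untreated (control) and after 10 µM Acetalax for 4 h. The labels name 1 CE derivative per line and no separate cultures, so the p-values below measure the spread between these libraries, which may be technical.

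Intermediate filaments are built from proteins whose genes are switched on by cell type. Simple epithelia, including the luminal layer of the prostate, assemble filaments from pairs of a type II and a type I keratin, KRT8 with KRT18 first among them, and the basal layer uses KRT5. Mesenchymal cells use the type III protein vimentin, and neurons use type IV neurofilament proteins, in which the light subunit NEFL forms the core and the medium subunit NEFM and the heavy subunit NEFH join it. A change from keratins to vimentin is widely used as a marker of epithelial-mesenchymal transition.

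In the GENCODE 29 annotation of GRCh38, all 10 were protein-coding genes. KRT80, KRT7, KRT81, KRT5, KRT8 and KRT18 lay in this order on chromosome 12 within 783906 bases, from KRT80 at 52168996 to the end of KRT18 at 52952901. KRT18 is the type I gene that sits in this type II cluster, and it shared 1084 bases with KRT8 on the opposite strand. The type I gene KRT19 lay on chromosome 17 (41523617 to 41528308, minus strand) and VIM on chromosome 10 (17228259 to 17237593, plus strand). NEFM and NEFL were neighbours on opposite strands of a further chromosome, with 31856 bases between them.

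RefSeq promoter sequence was at hand for 3 of the 10. Those of VIM and KRT8 are shown because these genes moved in opposite directions in both lines. Each line gives the 250 bases before the RefSeq start (GRCh38.p14), 5′ to 3′ on the gene's strand. Capitals mark matches to GGGCGG, the GC box, in a search on both strands that also covered CAGGTG, an E-box, and TGANTCA, an AP-1-type motif.
VIM (chr10:17227991-17228240, plus strand): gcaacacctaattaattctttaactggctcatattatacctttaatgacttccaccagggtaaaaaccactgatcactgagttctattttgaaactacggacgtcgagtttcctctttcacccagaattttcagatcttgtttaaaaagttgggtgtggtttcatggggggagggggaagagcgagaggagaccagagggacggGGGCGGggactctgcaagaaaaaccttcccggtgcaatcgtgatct
KRT8 (chr12:52926470-52926719, minus strand): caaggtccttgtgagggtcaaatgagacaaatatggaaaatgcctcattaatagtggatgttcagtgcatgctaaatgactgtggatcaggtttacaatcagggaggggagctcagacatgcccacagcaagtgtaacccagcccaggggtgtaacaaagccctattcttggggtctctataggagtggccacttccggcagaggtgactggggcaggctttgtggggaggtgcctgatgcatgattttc
The VIM window held GGGCGG once, 46 bases before the start, and no match to the other motifs, and the KRT8 window held none of them. GGGCGG was present in 42.6% of 35116 RefSeq promoter windows of this length, CAGGTG in 17.5% and TGANTCA in 6.57%. The RefSeq start of KRT8 lay within 100 bases of the start of 1 of the 17 GENCODE 29 transcripts of the gene, and that of VIM within 100 bases of 1 of its 10, so each window stands for 1 of several starts.

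Libraries held between 40160832 and 57728014 expected counts. Levels are given in TPM (transcripts per 1000000), which are scaled by transcript length. In all, 3 libraries stood apart from their groups: LNCaP parental control 2, LNCaP parental Acetalax 3 and PC3 CE Acetalax 1, whose correlations with the other libraries of their group (log2 TPM, across genes) were 0.979 to 0.986, against 0.992 to 0.996 between all other libraries of a group. Cells were checked against marker genes. LNCaP parental controls expressed 8 of 8 luminal prostate markers at 1 TPM or more, summing to 5122 to 8076 TPM, whereas the libraries labelled LNCaP CE expressed 2 of 8 in controls (10.4 to 13.0 TPM), with TMPRSS2 under 0.1 TPM. Of 8 fibroblast markers, summed levels were 31.5 to 39.4 TPM in PC3 parental controls and 3150 to 3156 TPM in PC3 CE controls, and 9.38 to 23.4 TPM in LNCaP parental and 1073 to 1145 TPM in LNCaP CE controls. In each parental line 1 of the 8 reached 1 TPM, and in the CE controls 6 of 8 did in PC3 and 7 of 8 in LNCaP. Of the 7 with enough counts to test, 6 were higher and 1 was lower in PC3 CE than in parental controls (38.5% and 38.9% of all genes tested). In LNCaP CE 6 were higher and 0 lower (35.9% and 39.2%). Most of the sum in PC3 CE controls was COL1A2 and COL3A1, at 2112 and 849 TPM. Endothelial and immune markers summed to at most 0.16 and 0.65 TPM in the CE controls. These marker levels moved with every CE comparison below, and their part in the results was not tested. Whether the libraries labelled CE hold descendants of the labelled lines was not tested either, so a CE change below means a difference between libraries so labelled. In bulk RNA, fewer cells of a type and less RNA per cell cannot be told apart.

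**Figure D1:**
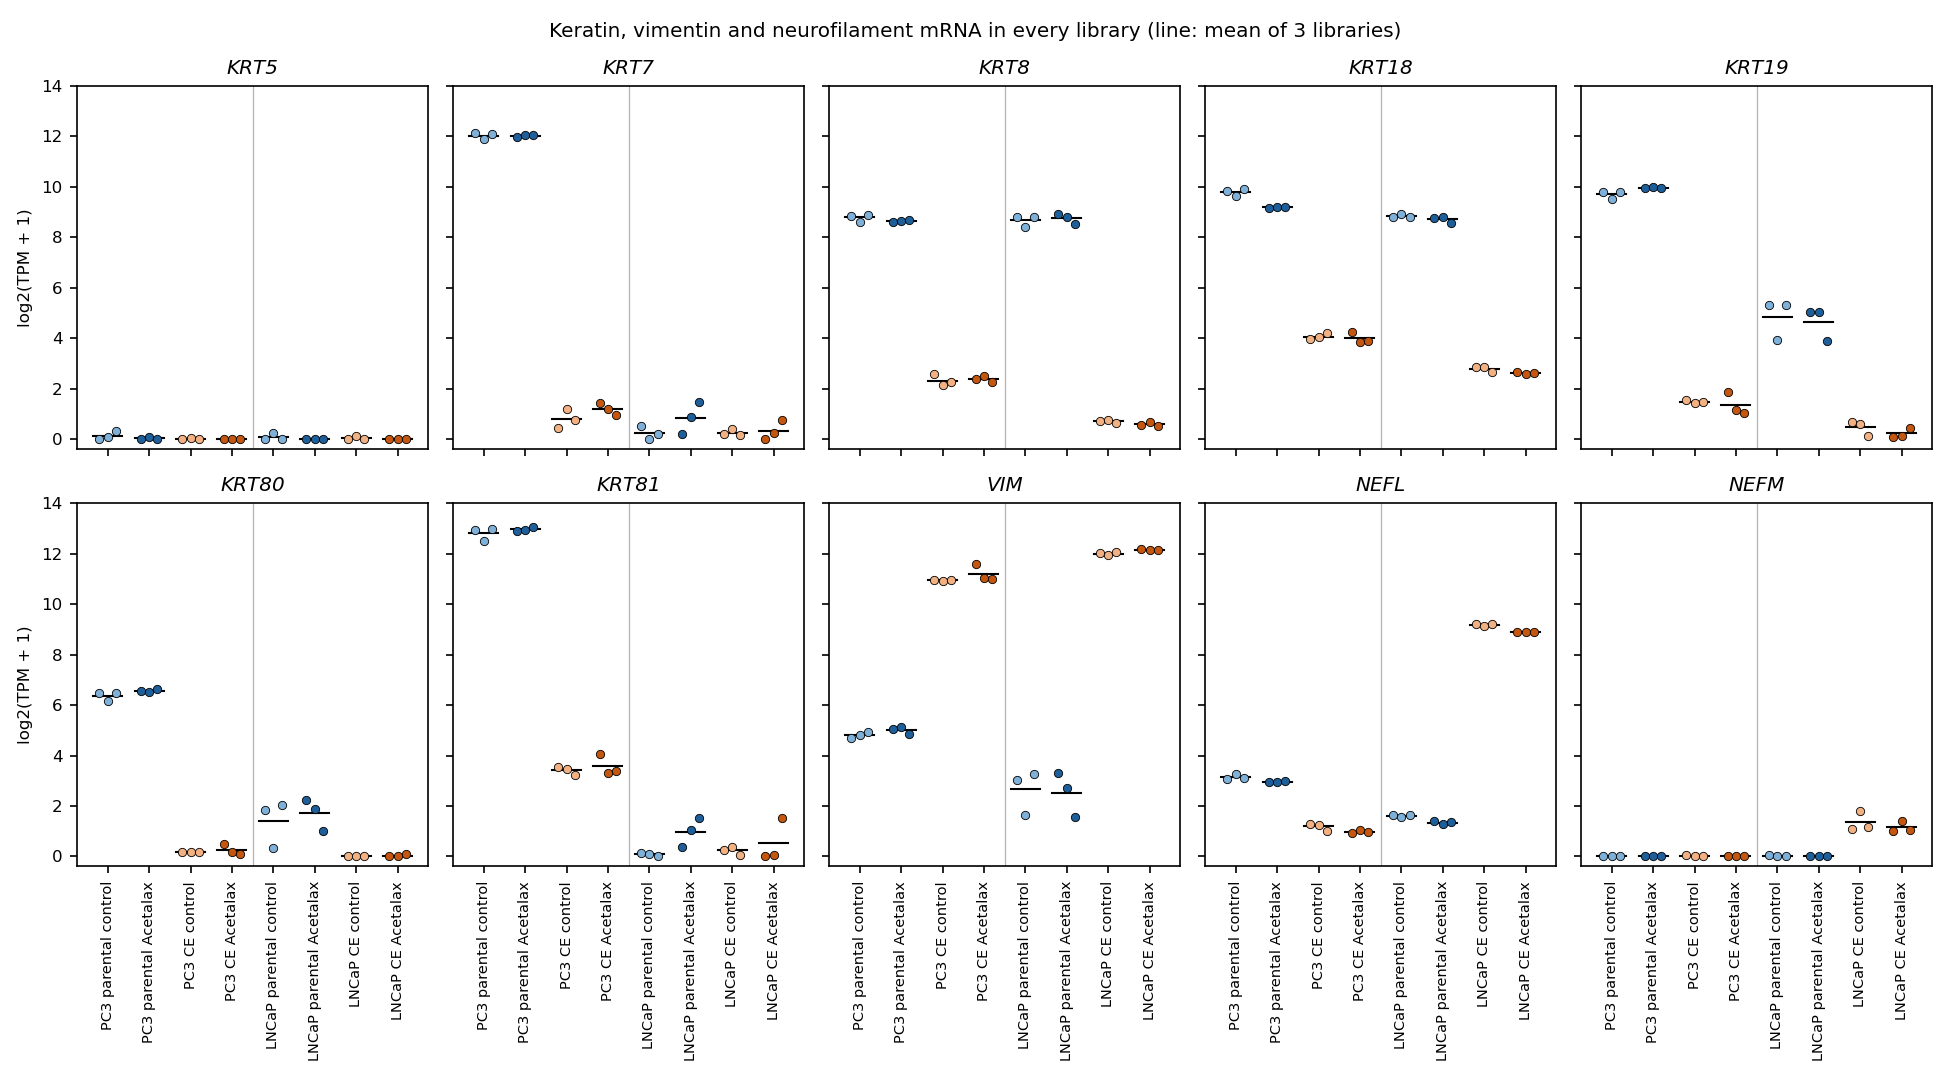
Levels of the 10 genes in all 24 libraries, as log2(TPM + 1), with 1 panel per gene, 1 point per library and a line at the mean of each group of 3. Keratins other than KRT5 were high in parental libraries of one or both lines and low in CE libraries, VIM showed the opposite layout, and NEFL and NEFM had their highest levels in the 6 LNCaP CE libraries, NEFM at no more than 2.48 TPM.

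The parental lines differed in which keratins they expressed. Both expressed the KRT8 and KRT18 pair, and PC3 additionally expressed KRT7, KRT19, KRT80 and the hair keratin KRT81 at levels that LNCaP lacked. Of the 9 genes with enough counts to test across all 24 libraries, 7 were lower in LNCaP and 0 were higher, where 34.7% of all genes tested were lower, 35.5% were higher and 70.3% changed in either direction (edgeR's quasi-likelihood test, Benjamini-Hochberg adjusted p under 0.05 over all genes tested). The median log2 difference of the 9 was -2.23, against 0.0 over all genes.

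KRT81, a type II keratin of the hair shaft, was the most abundant of the 10 in PC3, at 7866, 5824 and 8142 TPM in the parental controls, and was at 0.11, 0.07 and 0.02 TPM in LNCaP parental controls. KRT7, a type II keratin of ducts and glands, was at 4439, 3799 and 4323 TPM in PC3 and at 0.43, 0.00 and 0.15 TPM in LNCaP. KRT19, the smallest type I keratin, was at 881, 727 and 895 TPM in PC3 and at 38.3, 14.2 and 38.7 TPM in LNCaP. No LNCaP parental control reached the level of any PC3 parental control for these genes. The log2 differences were -16.66 ± 1.18 (SE), -15.80 ± 0.95 and -5.29 ± 0.43, with edgeR adjusted p of 9.67e-11, 7.83e-12 and 8.54e-10. KRT80, a type II keratin found in many epithelia, was 5.43 ± 0.62 lower in LNCaP by the same test, at 87.3, 70.5 and 88.9 TPM in PC3 and at 2.61, 0.27 and 3.06 TPM in LNCaP (adjusted p = 1.65e-07).

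KRT8, the type II partner of KRT18, did not separate the parental lines. It was at 458, 394 and 472 TPM in PC3 and at 441, 335 and 452 TPM in LNCaP, the ranges overlapped, and the log2 difference of -0.14 had a 95% interval of -0.46 to 0.17 (edgeR adjusted p = 0.404). KRT18 was at 914, 804 and 955 TPM in PC3 and at 449, 483 and 443 TPM in LNCaP, without overlap (log2 difference -0.98 ± 0.11, edgeR adjusted p = 9.3e-08). The ratio of KRT8 to KRT18 TPM was accordingly 0.495 ± 0.00579 in PC3 and 0.899 ± 0.179 in LNCaP parental controls (SD, n = 3). VIM was low in both lines, at 25.2, 27.3 and 29.2 TPM in PC3 and at 7.22, 2.15 and 8.69 TPM in LNCaP. NEFL was at 7.84 ± 0.645 TPM in PC3 and 2.07 ± 0.115 TPM in LNCaP (SD, n = 3). Both were lower in LNCaP, VIM by a log2 difference of -2.23 ± 0.37 and NEFL by -1.91 ± 0.10 (edgeR adjusted p of 1.86e-05 and 9.08e-13).

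KRT5, the type II keratin of the prostate's basal layer, was near 0 in every group. Its highest value in any library was 0.24 TPM, and it did not pass the filter on low counts in any comparison. In the 3 LNCaP parental Acetalax libraries together it had 0 of 140446667 expected counts, which allows up to 0.0214 counts per 1000000, an upper limit that covers counting error only. The other basal prostate markers TP63, KRT14, KRT15, DST and ITGB4 summed to 2260 to 3107 TPM in PC3 parental and 35.3 to 40.7 TPM in PC3 CE controls. TP63 was under 0.1 TPM in the parental controls of both lines. Most of the PC3 parental sum was ITGB4, at 2665 TPM, which was at 2.96 TPM in PC3 CE controls. Of the 5, 4 fell and 1 rose in PC3 CE (38.9% and 38.5% of all genes tested). In LNCaP 2 fell and 2 rose (39.2% and 35.9%). The LNCaP sums were 9.8 to 12.5 TPM in parental and 20.05 to 21.99 TPM in CE controls.

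In PC3, the keratins were almost entirely missing from the CE libraries and VIM was abundant. All 8 testable genes differed between CE and parental controls: 7 fell and 1, VIM, rose, while 77.5% of all genes tested changed, 38.9% lower and 38.5% higher. The median log2 change of the 8 was -7.89, against -0.01 over all genes. Leaving out any 1 of the 6 libraries compared, and each other alternative, kept all 8 past the threshold.

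KRT7 fell from the values above to 0.36, 1.26 and 0.68 TPM in PC3 CE controls, a log2 change of -13.63 ± 0.67 (edgeR adjusted p = 4.06e-09). KRT81 fell to 10.6, 9.94 and 8.46 TPM (-9.64 ± 0.28, edgeR adjusted p = 6.11e-11). These had been the most abundant of the 10, and 0.0183% of the parental KRT7 level and 0.133% of the parental KRT81 level were left. KRT80 fell to 0.12, 0.13 and 0.12 TPM (-9.42 ± 0.45, edgeR adjusted p = 2.85e-09) and KRT19 to 1.93, 1.67 and 1.75 TPM (-8.91 ± 0.31, edgeR adjusted p = 2.11e-10).

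The KRT8 and KRT18 pair had smaller log2 changes in PC3. KRT8 was at 4.99, 3.37 and 3.74 TPM in CE controls, 117-fold below parental cells (log2 change -6.87 ± 0.18, edgeR adjusted p = 2.51e-11). KRT18 was at 14.7, 15.4 and 17.2 TPM, 59.6-fold below (-5.90 ± 0.15, edgeR adjusted p = 2.32e-11). Among KRT7, KRT8, KRT18, KRT19, KRT80 and KRT81, KRT18 kept the largest share of its parental level, 1.77%, against 0.914% for KRT8. For scale, KLK3, a secreted product of luminal cells, was at 4399 TPM in LNCaP parental controls, at 0.16 TPM in PC3 parental and at 4.43 ± 5.51 TPM in PC3 CE controls (SD, n = 3), the last being 0.101% of the LNCaP level. Whether traces at such levels came from the cells of the library was not tested.

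VIM rose in PC3 from 27.2 ± 2.01 to 1972 ± 27.5 TPM (SD, n = 3). The CE controls read 2001, 1946 and 1970 TPM, all far above every parental library (68.3-fold, log2 change 6.09 ± 0.19, edgeR adjusted p = 8.5e-11). NEFL fell from 7.29, 8.55 and 7.68 TPM to 1.45, 1.39 and 1.03 TPM (-2.64 ± 0.15, edgeR adjusted p = 1.11e-08). NEFM had 1 expected count in the 3 PC3 parental controls and 2 in the 3 PC3 CE controls, too few to test.

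**Figure D2:**
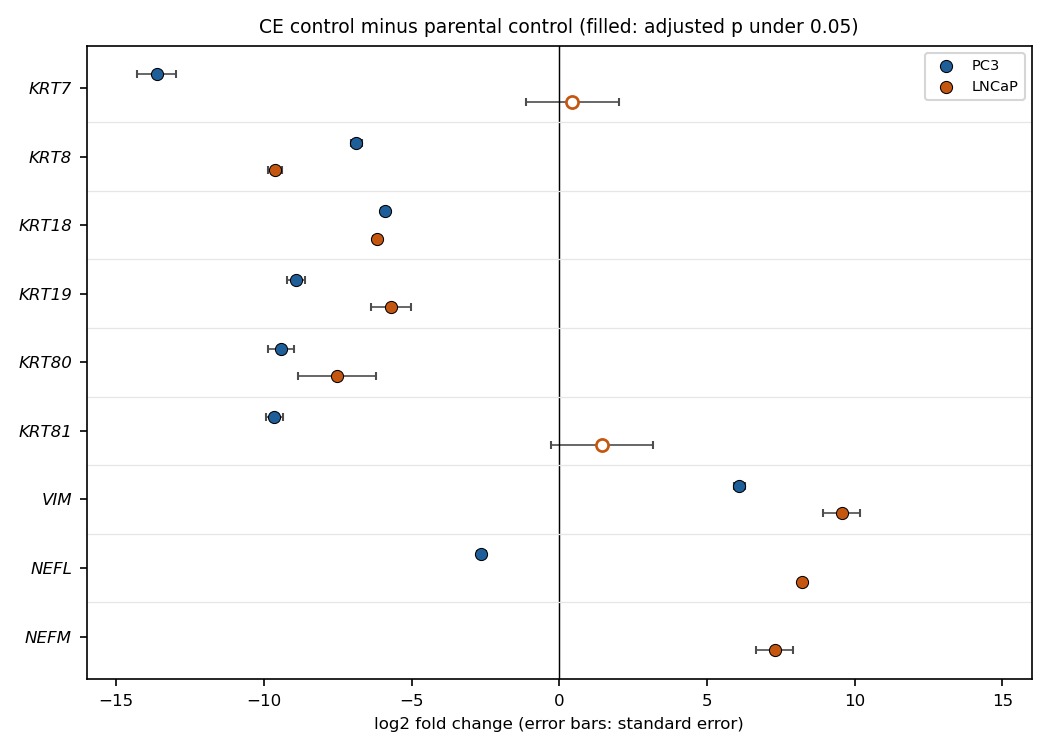
Log2 fold change of CE control over parental control for each testable gene in PC3 (blue) and LNCaP (orange), with standard errors, filled where the edgeR adjusted p was under 0.05. KRT8, KRT18, KRT19 and KRT80 were lower and VIM higher in CE cells of both lines, and NEFL was lower in PC3 CE (-2.64) and higher in LNCaP CE (8.21).

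In LNCaP, CE libraries likewise had almost no KRT8 and KRT18 and abundant VIM, and they expressed NEFL at a high level. Of 9 testable genes, 3 rose (VIM, NEFL and NEFM), 4 fell (KRT8, KRT18, KRT19 and KRT80), and KRT7 and KRT81 did not pass. Over all genes tested, 75.1% changed, 35.9% higher and 39.2% lower. The median log2 change of the 9 was 0.44, against -0.06 over all genes, and the count of 7 was the same under each alternative tried.

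KRT8 fell in LNCaP from 441, 335 and 452 TPM to 0.65, 0.68 and 0.56 TPM in CE controls, a log2 change of -9.61 ± 0.24 (edgeR adjusted p = 6.99e-11). KRT18 was at 6.16, 6.24 and 5.32 TPM in CE controls (-6.18 ± 0.12, edgeR adjusted p = 1.56e-11). Neither gene had a CE library near any parental one, and 0.154% of the parental KRT8 level was left, against 1.29% for KRT18. The ratio of KRT8 to KRT18 was 0.107 ± 0.00207 in LNCaP CE controls and 0.258 ± 0.0701 in PC3 CE controls (SD, n = 3), below the parental ratios in both lines.

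KRT19 was at 0.61, 0.51 and 0.08 TPM in LNCaP CE controls, below every parental library (-5.71 ± 0.68, edgeR adjusted p = 1.64e-05). KRT80 had 677 expected counts over the 3 parental controls and 3 over the CE controls, a ratio of 226 with a counting interval of 76.9 to 1097 (95%, exact, counting error only). KRT7 and KRT81 were at 0.43 TPM or less in every LNCaP control library. Their log2 changes of 0.44 and 1.44 had intervals of -3.02 to 3.91 and -2.37 to 5.24.

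VIM had the largest CE rise of the 10 in LNCaP, from 7.22, 2.15 and 8.69 TPM to 4144, 3981 and 4258 TPM (log2 change 9.56 ± 0.63, edgeR adjusted p = 1.28e-07). The lowest parental value belonged to LNCaP parental control 2, and without that library and LNCaP parental Acetalax 3 the change was 9.13 and still passed. NEFL rose from 2.14, 1.94 and 2.14 TPM to 586, 564 and 594 TPM (296-fold, 8.21 ± 0.10, edgeR adjusted p = 1.01e-12). NEFM rose from 2 to 333 expected counts over 3 libraries each, a ratio of 166 with a counting interval of 45.7 to 1380 (edgeR adjusted p = 5.38e-06). In TPM it remained low, at 1.14, 2.48 and 1.24, so that NEFL was 407 ± 156 times as abundant as NEFM in LNCaP CE controls (SD, n = 3).

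The difference between the CE changes of the lines was tested directly in a fit of all 24 libraries. It passed for 7 of 9 genes, 6 with a more positive and 1 with a more negative change in LNCaP, where 56.8% of all genes tested passed, 25.7% more positive and 31.2% more negative in LNCaP. The CE comparisons do not share samples between lines. NEFL differed most clearly, since it fell in PC3 and rose in LNCaP (difference 10.82 ± 0.17, edgeR adjusted p = 8.71e-21). VIM rose more in LNCaP (3.43 ± 0.50, adjusted p = 6.81e-06) and KRT8 fell more in LNCaP (-2.76 ± 0.25, adjusted p = 8.43e-09), both by the same edgeR test. KRT18 was the member whose fall was closest in the 2 lines: its difference of -0.31 had an interval of -0.64 to 0.02 (adjusted p = 0.0999). With limma on log2(TPM + 0.1) it passed (-0.45, adjusted p = 0.0133). KRT7 and KRT81, with 8 and 12 expected counts over the 3 LNCaP parental controls, had differences of 14.07 and 11.04. KRT19, with 2471 counts there, fell in both lines and less in LNCaP (difference 3.17). KRT80 did not pass (1.87 ± 3.11, edgeR adjusted p = 0.661), and passed with limma on log2(TPM + 1) (4.81, adjusted p = 1.14e-08). The added 1 shrinks the LNCaP fall on that scale, since KRT80 was at 1.98 TPM in LNCaP parental and 0.01 TPM in LNCaP CE controls. NEFM passed narrowly (6.63 ± 2.64, edgeR adjusted p = 0.0419). It missed the threshold without PC3 parental control 1 (4.64, adjusted p = 0.996), the 1 library of that group with a NEFM count, and also without PC3 CE control 2 or 3, LNCaP CE control 2 or 3, or LNCaP parental control 2 or 3 (adjusted p of 0.0539 to 0.0568), with no filter on low counts (0.0556) and with the groups compared fitted alone (0.0678).

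Set side by side, the CE derivatives still differed in 7 of 9 testable genes, 3 higher and 4 lower in LNCaP CE, where 41.0% of all genes tested differed, 16.8% higher and 24.2% lower. The median difference of the 9 was -1.72, against -0.07 over all genes. VIM was 2.29-fold higher in LNCaP CE (log2 difference 1.20 ± 0.35, edgeR adjusted p = 0.00854) and NEFL 483-fold higher (8.92 ± 0.14, edgeR adjusted p = 1.51e-20). KRT8, KRT18, KRT19 and KRT81 were lower in LNCaP CE, by log2 differences of -2.91, -1.29, -2.12 and -5.62. KRT80, with 43 against 3 expected counts, did not pass (adjusted p = 0.103), and it passed without the 3 libraries that stood apart (adjusted p = 0.00638).

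The order of the 8 groups followed from these changes. For KRT8, the 4 parental groups (402 to 441 TPM on average) overlapped with their neighbours in the order, and stood above the PC3 CE groups (4.03 and 4.18 TPM), which stood above the LNCaP CE groups (0.497 and 0.630 TPM). KRT18 and KRT19 had the order PC3 parental, LNCaP parental, PC3 CE and LNCaP CE, with no overlap between these 4 kinds of cell. For KRT7, the PC3 parental groups stood above all others, and the other 6 group means, all 1.29 TPM or less, overlapped with their neighbours. VIM had the order LNCaP CE, PC3 CE, PC3 parental and LNCaP parental. NEFL had the order LNCaP CE, PC3 parental and LNCaP parental, and the PC3 CE groups came last, with PC3 CE controls overlapping both LNCaP parental Acetalax and PC3 CE Acetalax libraries.

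Across the 24 libraries, pairs of these genes varied together as the groups did. Pearson's r of log2(TPM + 1) was 0.99 for KRT8 with KRT18, -0.97 for KRT8 with VIM, 0.98 for KRT7 with KRT81 and 0.94 for NEFL with NEFM. The points share lines and derivatives, 3 libraries to a group, so these values describe the group pattern. Among 2976 genes with a mean of at least 5 TPM and an SD of at least 1 on this scale, the profiles most like KRT18 were IQANK1 and SPINT1 (both r = 0.997), OCIAD2 (0.995), MBP and KRT8 (both 0.994). SPINT1, an inhibitor of epithelial serine proteases, was at 272 and 150 TPM in PC3 and LNCaP parental controls, and at 1.79 and 0.323 TPM in the CE controls. For KRT7 they were ANXA3, IL6, ABI3BP, AC015712.1 and TSPAN2 (all 0.998). The profiles most like VIM were ADGRL2 (0.993), PCOLCE (0.992), BOLA3-AS1 and SPRY4 (both 0.991) and PLEKHA4 (0.990). PCOLCE, which enhances procollagen processing, was at 23.9 and 8.75 TPM in the parental controls and at 290 and 305 TPM in the CE controls of PC3 and LNCaP. For NEFL they were SLC15A3 (0.990), TAP1 (0.980), GUCY1B1 (0.977), OSTN (0.976) and PSMB9 (0.973). TAP1, which carries peptides for antigen presentation, was at 21.6 TPM in LNCaP parental and 195 TPM in LNCaP CE controls, and at 30.5 and 26.8 TPM in PC3 parental and CE controls.

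Summed over 54 keratin genes, most of whose parental level came from the members, the level was 14079 ± 1807 TPM in PC3 parental and 71.7 ± 4.40 TPM in PC3 CE controls, and 986 ± 59.2 TPM in LNCaP parental and 62.9 ± 4.82 TPM in LNCaP CE controls (SD, n = 3). The ratio of VIM to all keratins was 0.00195 in PC3 parental and 27.6 in PC3 CE controls, and 0.00598 and 66.0 in LNCaP. Type II keratins fell further than type I, and their ratio was 6.46 ± 0.271 and 0.262 ± 0.0324 in PC3, and 0.724 ± 0.128 and 0.0174 ± 0.00421 in LNCaP, parental before CE. Without KRT81 the PC3 ratios were 2.62 ± 0.0849 and 0.0916 ± 0.00739. Much of what was left was KRT10, a type I keratin of the upper epidermis. KRT10 was at 38.3 ± 4.27 TPM in PC3 CE and 55.3 ± 3.88 TPM in LNCaP CE controls, and fell only by log2 changes of -1.29 ± 0.17 and -0.50 ± 0.12 (edgeR adjusted p of 2.19e-05 and 0.00308).

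Of 13 type I keratins of stratified epithelia, 6 were testable in PC3 and all 6 fell, among them KRT15, a basal keratin (33.9 to 0.320 TPM), and KRT16, which had 2750 counts in parental and 0 in CE controls, at least 1048-fold higher in parental cells (floor of 3 counts over the group). All 5 testable type II keratins of this kind fell in PC3: KRT3, KRT4, KRT6A, KRT6B and KRT75. So did all 6 testable hair keratins, KRT81 among them, including KRT86 (169 to 0.167 TPM) and KRT83, whose 2725 and 2 counts gave a ratio of 1558 (431 to 12869.5). In LNCaP, KRT10 and KRT14 fell among 3 testable genes of the first list, KRT6C and KRT75 among 2 of the second, and KRT81 was the 1 testable hair keratin. Over all genes tested, 38.9% fell in PC3 CE and 39.2% in LNCaP CE. KRT81 and KRT86 share sequence: 28.8% of the 100-base windows of KRT81 transcripts occur in KRT86, and KRT81 lies within KRT86 on the opposite strand. How counts were divided between them is uncertain, and KRT81 is best read together with KRT86, which moved the same way. The 1084 bases that KRT8 and KRT18 share on opposite strands are a further place where reads can be divided, and whether the counting used strand is not given in the sources used here. Of the windows of KRT8, 1.60% occur in other genes, and those of KRT7, KRT18, KRT19, KRT80, VIM, NEFL and NEFM were found in no other gene. By position, KRT7 also overlaps KRT86 on the same strand and KRT87P on the opposite strand (up to 188.5 and 162.8 TPM in any library). VIM overlaps VIM-AS1 and NEFL overlaps AC107373.2, both on the opposite strand (up to 13.3 and 10.2 TPM). The effect of these overlaps on the counts was not tested.

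**Figure D3:**
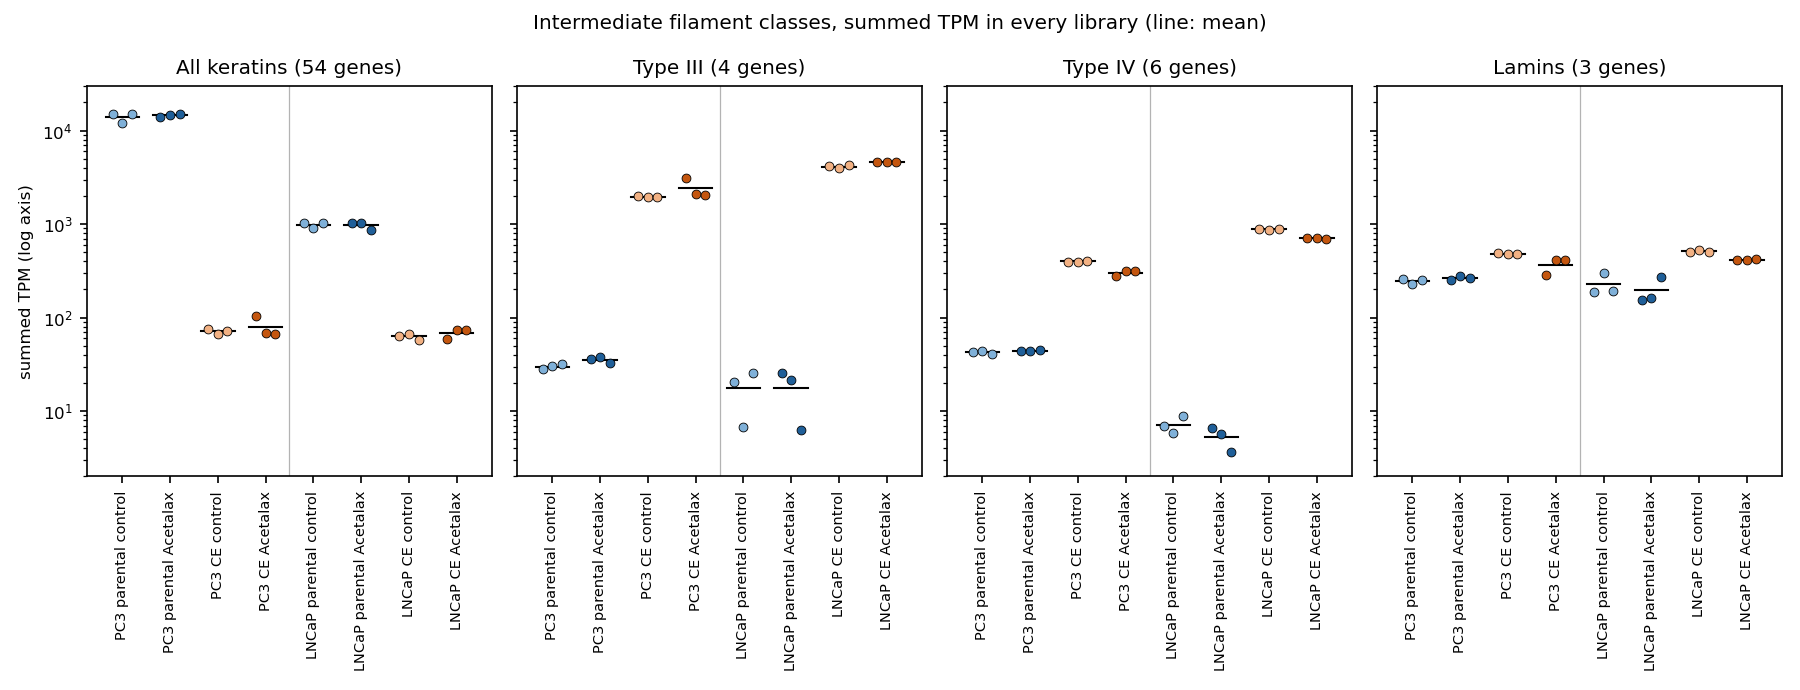
Summed TPM, on a log axis, of all 54 keratins, the 4 type III genes, the 6 type IV genes and the 3 lamins, with 1 point per library and a line at each group mean. Keratin sums fell from 14079 to 71.7 TPM in PC3 and from 986 to 62.9 TPM in LNCaP between parental and CE controls, while type III and type IV sums rose in both.

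Type IV genes other than NEFL and NEFM rose in both lines. Of 6 type IV genes, 4 rose and 1, NEFL, fell in PC3 CE (38.5% and 38.9% of all genes tested). All 6 rose in LNCaP CE (35.9%). NEFH, the heavy neurofilament subunit, was at 0.0133 ± 0.0231 TPM in PC3 parental and 123 ± 1.37 TPM in PC3 CE controls, and at 0.0567 ± 0.0153 and 212 ± 4.52 TPM in LNCaP. These were log2 changes of 13.03 ± 0.48 and 11.97 ± 0.42 (edgeR adjusted p of 3.79e-10 and 7.16e-10). NEFH therefore exceeded NEFL in PC3 CE (1.29 TPM), and NEFL exceeded NEFH in LNCaP CE (581 TPM). INA, alpha-internexin, a further neuronal subunit, was at 40.1 ± 1.89 TPM in PC3 CE and 4.10 ± 0.342 TPM in LNCaP CE controls, and under 0.1 TPM in every parental library. NES, nestin of progenitor cells, rose from 29.9 to 213 TPM in PC3 and from 0.240 to 63.9 TPM in LNCaP, and SYNM, synemin, from 4.64 to 22.0 TPM and from 4.78 to 15.4 TPM. Summed, the type IV genes were at 42.4 ± 1.81 and 400 ± 6.83 TPM in PC3 and at 7.17 ± 1.47 and 879 ± 17.9 TPM in LNCaP, parental before CE.

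Neuronal and neuroendocrine markers were measured beside the neurofilaments. Of 6 neuron markers, 4 rose in PC3 CE and 2 in LNCaP CE, where 38.5% and 35.9% of all genes tested rose. Their summed level was 101 to 104 TPM in PC3 CE controls (9.56 to 11.0 TPM in parental). It was 42.1 to 43.3 TPM in LNCaP CE controls (25.7 to 76.2 TPM in parental). Most of it was TUBB3, at 94.6 and 8.16 TPM in PC3 CE and parental controls, and at 34.9 and 50.2 TPM in LNCaP. RBFOX3, SNAP25 and STMN2 were under 0.1 TPM in LNCaP CE controls. Of 7 neuroendocrine markers, 4 were testable in PC3 and 5 in LNCaP, and all of these rose in CE (38.5% and 35.9% of all genes tested). Their sums were 10.5 to 11.3 TPM in PC3 CE controls (0.74 to 0.94 TPM in parental). In LNCaP CE controls they were 10.4 to 10.8 TPM (1.92 to 2.23 TPM in parental). INSM1 and NCAM1 were under 0.1 TPM in the CE controls of both lines. TYRP1, a melanocyte pigment enzyme, was at 380 TPM in PC3 CE and 20.9 TPM in LNCaP CE controls, while TYR, MLANA, SOX10 and S100B were under 0.1 TPM. It was the 1 melanocyte marker that rose in either line. MITF and PMEL fell in both, and DCT in PC3. Their part in the neurofilament result was not tested.

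The other type III genes stayed low: DES rose in PC3 CE to 0.663 TPM, and PRPH, peripherin, fell from 2.64 to 1.04 TPM in PC3 and from 11.5 to 0.197 TPM in LNCaP. Among the nuclear lamins, LMNB1 and LMNB2 rose and LMNA fell in both lines. LMNB1 went from 4.67 ± 0.448 to 179 ± 4.48 TPM in PC3 (log2 change 5.18 ± 0.18, edgeR adjusted p = 1.95e-10) and from 77.2 ± 41.2 to 230 ± 10.0 TPM in LNCaP (1.59 ± 0.53, adjusted p = 0.0184). The spread of the LNCaP parental controls came from control 2, at 125 TPM against 51.2 and 55.7 TPM.

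Most genes of a list of cytolinkers and desmosome plaque proteins fell in the same comparisons. Of 18 such genes, 17 were testable in PC3, where 14 fell and 1, PKP4, rose, and in LNCaP 12 of 18 fell and 5 rose. Over all genes tested, 38.9% fell and 38.5% rose in PC3, and 39.2% fell and 35.9% rose in LNCaP. DSP, desmoplakin, which ties keratins to the desmosome, fell from 44.3 to 0.170 TPM in PC3 and from 57.8 to 0.0467 TPM in LNCaP (log2 changes -8.14 ± 0.41 and -10.88 ± 0.81, edgeR adjusted p of 4.82e-09 and 3.3e-07). The desmosome plaque gene EVPL, envoplakin, fell from 34.4 to 0.210 TPM and from 17.9 to 0.0333 TPM. The 5 that rose in LNCaP, named after their values were seen, were PKP4, DST, MACF1, TCHP and DSG3. DST and MACF1, linkers of filaments, actin and microtubules, fell in PC3 (log2 changes -0.86 and -0.57) and rose in LNCaP (2.35 and 1.20).

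Genes that regulate keratins moved in both directions. Of 19, 13 fell and 6 rose in PC3 (38.9% and 38.5% of all genes tested). In LNCaP 11 fell and 6 rose (39.2% and 35.9%). TFAP2A, one of the 19, had a higher mean in CE than in parental controls of both lines. It was at 44.0 and 221 TPM in PC3 parental and CE controls, and at 9.27 and 54.2 TPM in LNCaP. The epithelial splicing regulator ESRP1 fell from 124 to 0.0467 TPM in PC3 and from 47.0 to 0.0833 TPM in LNCaP. The epithelial transcription factor GRHL2 fell from 35.7 to 0.1 TPM in PC3 and from 26933 to 2 counts in LNCaP (a ratio of 13471, counting interval 3729 to 111238). The repressors of epithelial genes ZEB1 and ZEB2 rose in both lines: ZEB1 was at 0.377 and 5.40 TPM and ZEB2 at 0.577 and 28.8 TPM in PC3 parental and CE controls, and ZEB1 was at 15.1 TPM and ZEB2 at 3.93 TPM in LNCaP CE controls, both at a mean under 0.1 TPM in the parental controls. TWIST1, which promotes the mesenchymal state, rose by log2 changes of 3.04 ± 0.14 in PC3 and 3.04 ± 0.19 in LNCaP (edgeR adjusted p of 1.76e-09 and 8.61e-08), and the difference of -0.03 between the lines had an interval of -0.50 to 0.44.

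After Acetalax for 4 h, at most 1 of the 10 genes passed in each kind of cell, close to the share of all genes tested. The 4 drug comparisons shared their controls with the CE comparisons above. In PC3 parental cells 1 of 8 testable genes passed, KRT18, which fell, where 7.80% of all genes tested changed, 3.48% higher and 4.32% lower. In LNCaP parental cells 1 of 9 passed, NEFL, which fell, where 8.40% changed, 4.03% higher and 4.37% lower. In PC3 CE cells 0 of 8 passed, where 8.10% of all genes changed, 4.66% higher and 3.43% lower. In LNCaP CE cells 0 of 9 passed, where 7.33% of all genes changed, 3.31% higher and 4.02% lower. The median log2 change of the testable members was 0.04, -0.06, 0.18 and 0.21 in these 4 comparisons, and that of all genes between -0.01 and 0.01. At an unadjusted p under 0.05, 2 members passed in PC3 CE, VIM and NEFL, and 0 in LNCaP CE, while DESeq2 called 0 in PC3 CE and 1, NEFL, in LNCaP CE.

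**Figure D4:**
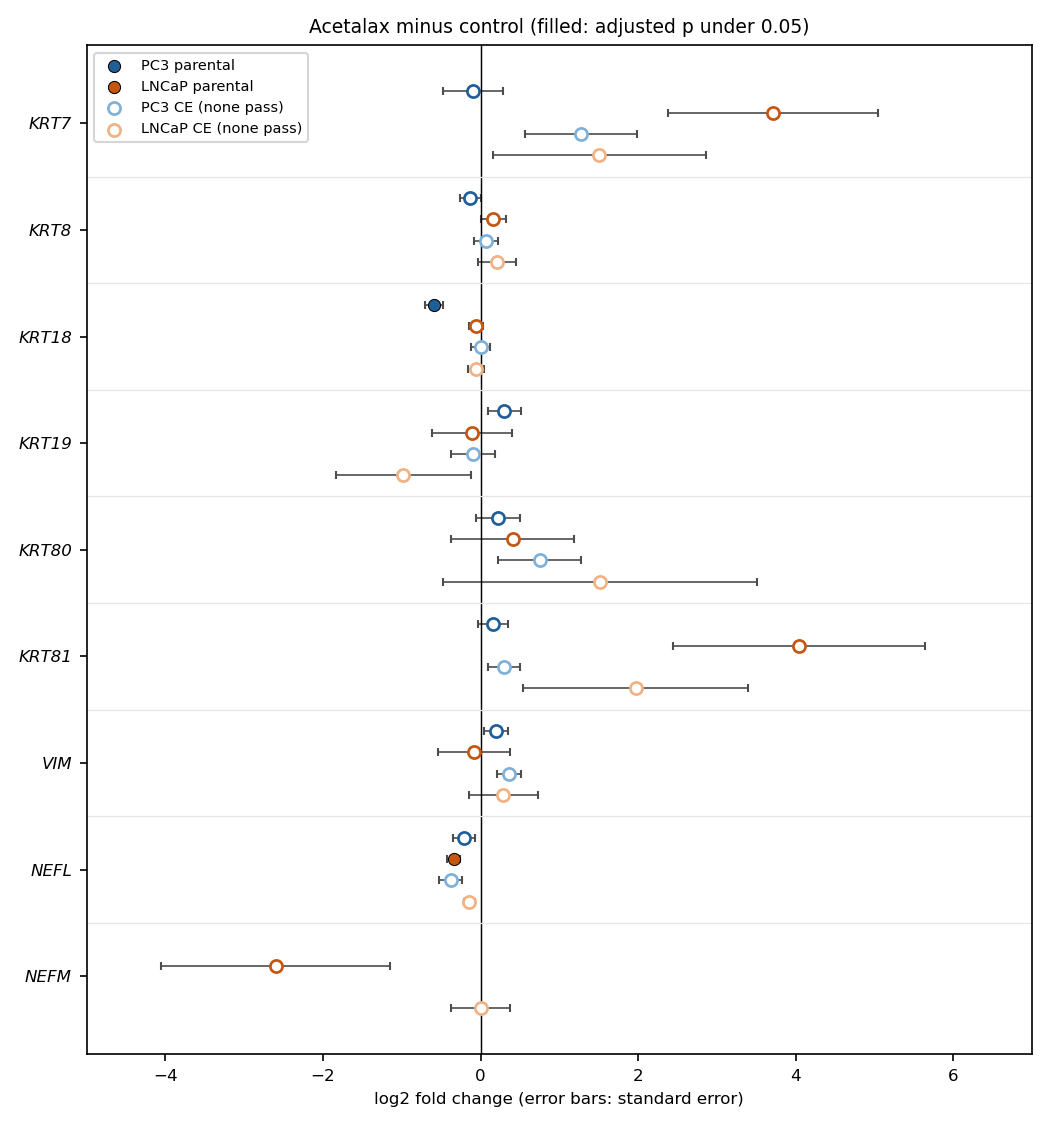
Log2 fold change of Acetalax over control in the 4 kinds of cell, with standard errors, filled where the edgeR adjusted p was under 0.05. Only KRT18 in PC3 parental (-0.59) and NEFL in LNCaP parental cells (-0.34) are filled, and the wide bars of KRT7, KRT81, KRT80 and NEFM belong to groups with few counts.

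KRT18 was at 914, 804 and 955 TPM in PC3 parental controls and at 573, 583 and 593 TPM after Acetalax. The groups did not overlap (1.51-fold lower, log2 change -0.59 ± 0.12, edgeR adjusted p = 0.0119). Without Acetalax replicate 1 or 2 the adjusted p was 0.0611 or 0.0528. Its partner KRT8 was at 392, 404 and 409 TPM after Acetalax, with a log2 change of -0.13 and an interval of -0.43 to 0.16, so that the ratio of KRT8 to KRT18 was 0.495 ± 0.00579 without and 0.689 ± 0.00509 with the drug (SD, n = 3, no overlap). KRT19 was at 998, 1015 and 994 TPM after Acetalax, above the 3 controls, and did not pass (0.30 ± 0.21, edgeR adjusted p = 0.488). It passed when PC3 CE Acetalax 1 was left out of the fit (0.30, edgeR adjusted p = 0.00274), and so did KRT80 (0.22, adjusted p = 0.0417). In that fit 5595 of all genes passed for this comparison, against 1564 with the library.

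In LNCaP parental cells KRT18 was at 431, 449 and 375 TPM after Acetalax, with a log2 change of -0.06 and an interval of -0.27 to 0.15. The difference in response between the parental lines was 0.54 ± 0.15 (edgeR adjusted p = 0.0416), the 1 of 9 members that passed, where 5.07% of all genes tested passed, 3.18% more positive and 1.89% more negative in LNCaP. It missed the threshold with limma, with no filter on low counts, with the 4 groups fitted alone, and without any one PC3 parental Acetalax library, PC3 parental control 1 or 3, LNCaP parental control 1 or 3, or LNCaP parental Acetalax 1 or 2 (adjusted p of 0.0538 to 0.117). With DESeq2, KRT7 and KRT81 also passed for this difference (3.81 and 3.91, adjusted p of 0.0355 and 0.0236). In CE cells KRT18 had a log2 change of 0.00 in PC3 (interval -0.27 to 0.28) and -0.06 in LNCaP (interval -0.28 to 0.16). Its response differed by 0.60 ± 0.17 between PC3 CE and PC3 parental cells, which missed the threshold (edgeR adjusted p = 0.0577) and passed with DESeq2 (0.59, adjusted p = 0.02) and without PC3 CE Acetalax 1, 2 or 3 (0.43, 0.67 and 0.67, adjusted p of 0.00924, 0.0389 and 0.0395). For this difference 0 of 8 members passed and 8.05% of all genes did, 4.61% more positive and 3.43% more negative in CE cells, and KRT18 was the 1 member with an unadjusted p under 0.05.

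NEFL had a negative log2 change in each kind of cell. It was at 1.63, 1.42 and 1.55 TPM in LNCaP parental Acetalax libraries against 2.14, 1.94 and 2.14 TPM in controls (-0.34 ± 0.08, edgeR adjusted p = 0.028), without overlap. It lost the call with no filter (adjusted p = 0.0775), with the 2 groups fitted alone (0.488), and without LNCaP parental Acetalax 1 or 2 or control 1 (0.0733, 0.116 and 0.0903). In LNCaP CE cells NEFL was at 478, 472 and 470 TPM after Acetalax, below the 3 controls, with a log2 change of -0.14 ± 0.07 (adjusted p = 0.365) that did not pass. It passed with DESeq2 (adjusted p = 0.0114), with the groups fitted alone (2.64e-05), with limma on log2(TPM + 1) and log2(TPM + 0.1) (-0.30 in both, 0.0102 and 0.0286) and without the libraries that stood apart (0.00839). Of all genes, 2875 passed with DESeq2, 7952 with the groups fitted alone and 6802 without those libraries, against 1421 in the main fit. In PC3 parental and PC3 CE cells its changes were -0.21 ± 0.14 and -0.38 ± 0.15, and neither passed. NEFM in LNCaP CE was at 1.01, 1.65 and 1.05 TPM after Acetalax, overlapping the controls.

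VIM was at 4633, 4604 and 4593 TPM in LNCaP CE cells after Acetalax, above the 3 controls, and did not pass (0.29 ± 0.44, edgeR adjusted p = 0.811). Without the LNCaP parental libraries that stood apart, which entered the shared estimate of spread, the change was 0.30 and passed (adjusted p = 0.0232), in a fit where 6802 of all genes passed for this comparison, against 1421 with them. In PC3 CE cells VIM was at 3071, 2097 and 2070 TPM after Acetalax. The first is PC3 CE Acetalax 1. The groups did not overlap, and the change of 0.36 ± 0.15 did not pass (adjusted p = 0.154). KRT19 in PC3 CE cells was at 2.61, 1.19 and 1.04 TPM after Acetalax and had a log2 change of -0.09 (adjusted p = 0.862), which without PC3 CE Acetalax 1 was -0.62 and passed (adjusted p = 0.0351). Its difference in response between PC3 CE and parental cells was -0.40 (edgeR adjusted p = 0.532), and -0.93 without that library (adjusted p = 0.00301). Over all genes, leaving out 1 of the libraries compared gave 501 to 3352 calls in PC3 CE cells, against 1623 with all. For the difference in response it gave 773 to 4593, against 1613.

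KRT7 and KRT81 in LNCaP stood near 0 with some exceptions after Acetalax. KRT81 was at 0.28, 1.08 and 1.88 TPM in LNCaP parental Acetalax libraries and at 0.00, 0.03 and 1.89 TPM in LNCaP CE Acetalax libraries, and KRT7 at 0.15, 0.83 and 1.73 TPM in the former and at 0.00, 0.18 and 0.70 TPM in the latter. The changes were large and imprecise, such as 4.04 ± 1.60 for KRT81 in parental cells (edgeR adjusted p = 0.174, and 0.0469 with DESeq2). Replicate 3 was the highest for both genes in both groups. No gene of the 10 passed the test of a difference in response between LNCaP CE and LNCaP parental cells (0 of 9) or between the CE derivatives (0 of 9). Of all genes 1.26% passed the first of these, 0.572% more positive and 0.686% more negative in CE cells, and 0.0774% the second, 0.0319% more positive and 0.0455% more negative in LNCaP CE. At an unadjusted p under 0.05, and with DESeq2, 0 members passed in either.

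Among the wider lists, the genes that regulate keratins held the most calls, in PC3 CE cells, where 5 of 19 rose and 1 fell (8.10% of all genes changed there). The 5 were OVOL1, KLF4, KLF5, SNAI1 and SNAI2, with log2 changes from 0.46 (SNAI2, 7.38 to 9.61 TPM) to 2.77 (KLF4, 0.27 to 1.18 TPM), and the 1 was GRHL3 (-0.87). In LNCaP parental cells 1 of the 19 rose and 2 fell (8.40% of all genes changed). In PC3 parental and LNCaP CE cells 0 were called (7.80% and 7.33% of all genes). Of the type IV genes, 2 of 5 fell in PC3 CE cells, where 3.43% of all genes fell. There NES fell from 213 ± 6.19 to 163 ± 12.9 TPM (log2 change -0.31 ± 0.07, edgeR adjusted p = 0.0222) and SYNM from 22.0 to 16.7 TPM (-0.35 ± 0.09, adjusted p = 0.0324). FAM83H, which organises keratin filaments, fell in PC3 CE from 30.1 to 20.6 TPM (-0.47 ± 0.09, adjusted p = 0.0129) and in LNCaP CE from 14.9 to 9.28 TPM (-0.51 ± 0.11, adjusted p = 0.0206). The regulators called in LNCaP parental cells were ELF3, TWIST1 and SNAI2 (-2.84). The epithelial factor ELF3 rose there from 55.0 ± 24.5 to 191 ± 36.2 TPM (1.5 ± 0.27, adjusted p = 0.0061), and TWIST1 fell from 21.8 ± 1.36 to 9.33 ± 3.18 TPM (-1.15 ± 0.18, adjusted p = 0.00331).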

How the data were processed

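Gene-level tables of expected counts and TPM were deposited by the authors. Per the submitters' processing notes, reads were checked with FastQC, aligned with STAR 2.7 to hg38 (GRCh38) and quantified with RSEM, which divides reads of related genes by estimated probability. Which annotation release and strand setting were used is not stated in the labels. Of 60660 features, 10.2% of deposited expected counts were not whole, and they were rounded, which moved a library's total by at most 0.000125%. In the deposited tables, 2 columns matched no sample and were not used.

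Counts were scaled by TMM, filtered with filterByExpr at a minimum count of 10, and tested with edgeR 4.0.16 (quasi-likelihood, R 4.3.3) across all genes, with Benjamini-Hochberg adjustment and a threshold of 0.05. The 12 libraries of a line were fitted together, and all 24 for comparisons between lines. "Testable" means that a gene passed the filter. Standard errors, intervals (95%) and log2 changes come from these fits, and levels with SD from TPM. The replicate numbers did not pair the libraries. Differences between libraries of a group exceeded counting noise, so none was taken as a duplicate. Ratios for genes with 1 to 3 counts in a group were computed from summed counts with exact counting intervals. The code was tested on simulated data.

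Alternatives were DESeq2 1.42.0, its size factors (RLE) in edgeR, no filter, only the groups compared, limma 3.58.1 on log2(TPM + 1) and log2(TPM + 0.1), a replicate block, and each library left out. The omission of the libraries that stood apart was added after seeing the data. The members and lists were chosen with earlier results of these data known. All 10 members were named. From each other list, up to 4 called genes with the largest log2 change and at least 10 TPM in 1 group were eligible, up to 3 in Acetalax comparisons. DES, DSG3, KRT3, KRT4, KRT6A, KRT6B, KRT6C, KRT14, KRT75, MACF1, KLF4, KLF5, GRHL3, MITF, PMEL, DCT, SNAI1, PKP4, RBFOX3 and STMN2 fall outside this rule and were chosen after their values were seen. Promoters were taken from RefSeq. A further marker gene is not reported here.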

Additional observations from a re-analysis of the deposited data

Results flagged for a closer look

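The CE change differed between LNCaP and PC3, by a test of the difference, for 7 of the 9 testable genes (log2, LNCaP minus PC3). Of all genes tested, 56.8% passed the same test. NEFL had a difference of 10.82 and VIM of 3.43, the former with a fall in PC3 and a rise in LNCaP, the latter with a larger rise in LNCaP. KRT8 had a difference of -2.76, a larger fall in LNCaP. KRT7, KRT81 and KRT19 had differences of 14.07, 11.04 and 3.17, with parental LNCaP levels below those of PC3 for all of them. KRT7 and KRT81 had 8 and 12 counts over the LNCaP parental controls, whereas KRT19 had 2471 and fell in both lines. NEFM had a difference of 6.63, which rests on 1 and 2 counts in the PC3 groups and 2 in LNCaP parental controls, and this call was lost in 10 of 20 alternatives. The response of KRT18 to Acetalax differed between the parental lines by 0.54, with a fall in PC3 and no called change in LNCaP, and this call was lost in 14 of 20 alternatives.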

How the results depend on the processing

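The counts of members called in the CE comparisons and between the lines were 8, 7, 7, 7 and 7 and stayed within 1.5 times of these under every alternative run, and no called member reversed its direction. KRT7 in LNCaP, which was not called, ran from -0.19 to 1.29 between CE and parental controls, and NEFM, not called between the parental lines, from -1.98 to 2.64. Leaving out 1 library gave 6 to 7 for the difference between the CE changes. The Acetalax counts were less stable. For PC3 parental cells (1 called), fitting only the groups compared gave 2, leaving out 1 of the libraries compared gave 0 to 1, and leaving PC3 CE Acetalax 1 out of the shared fit gave 3 (5595 over all genes). For LNCaP parental cells (1 called), DESeq2 gave 2, no filter 0, only the groups compared 0, the replicate block 0, and leaving out 1 library 0 to 1. For PC3 CE cells (0 called), leaving out 1 library gave 0 to 1. For LNCaP CE cells (0 called), DESeq2 gave 1, only the groups compared 2, limma 1 with either pseudocount, and the omission of libraries that stood apart 2. For the response difference between PC3 CE and parental cells (0 called), DESeq2 gave 1 and leaving out 1 library 0 to 2. For that between the parental lines (1 called), DESeq2 gave 3, no filter 0, limma 0 with either pseudocount, the replicate block 0, and leaving out 1 library 0 to 1. The cause of these changes was not tested. With the replicate block, NEFL in LNCaP parental cells had an adjusted p of 0.0667, KRT18 between the parental lines 0.0616 and NEFM between the CE changes 0.0579, and no other member's call changed. Same-numbered libraries correlated in their deviations between -0.526 and 0.364, so the numbers were not used as pairs.

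Over all genes, 1564, 1629, 1623 and 1421 passed in the 4 Acetalax comparisons, and leaving out 1 of the libraries compared gave 572 to 1152, 943 to 2607, 501 to 3352 and 522 to 579. In the same order DESeq2 gave 2701, 2778, 3075 and 2875, and only the groups compared 4790, 111, 162 and 7952. The replicate block gave 1082, 983 and 834 in the last 3, limma on log2(TPM + 0.1) 1031 in PC3 parental cells, and no filter 895 in LNCaP CE cells. Without the libraries that stood apart, 5328 passed in LNCaP parental and 6802 in LNCaP CE cells. Of the 1804 values of single members under an alternative, 1745 kept their side of the threshold, 32 lost a call and 27 gained one. Few counts limit KRT5, NEFM outside LNCaP CE, and KRT7, KRT80 and KRT81 where they were under about 1 TPM.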

Other observations

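TYRP1 had the highest level among the melanocyte markers measured beside the filaments, at 380 ± 9.82 TPM in PC3 CE controls and 0.02 ± 0.0346 TPM in PC3 parental controls (SD, n = 3). OSTN, one of the genes with a profile like that of NEFL, was at 1580 TPM in LNCaP CE controls, 0.0267 TPM in LNCaP parental controls and 0.507 TPM in PC3 CE controls, a level above that of NEFL itself. KLK2, a luminal product, was at 0.109% of its LNCaP parental level in PC3 CE controls and at 0.104% in LNCaP CE controls.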
